A study of Mus musculus with 12 samples.

Results

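This account follows the liver hormone FGF21 and the proteins through which fibroblast growth factors (FGFs) act, in livers of mice on a standard or a steatosis-inducing diet. The set holds 7 genes of the 55471 gene IDs in the count table, fixed by name: the ligand genes Fgf21 and Fgf1, the co-receptor gene Klb (beta-Klotho), and the receptor genes Fgfr1, Fgfr2, Fgfr3 and Fgfr4. All 7 passed the filter on low counts and were tested in each comparison.

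FGF21 is an endocrine FGF that the liver releases under nutrient and cell stress. It binds weakly to heparan sulfate, circulates, and signals only where beta-Klotho stands beside an FGF receptor, chiefly FGFR1 in fat tissue and brain. In the liver, beta-Klotho pairs mainly with FGFR4, where the gut hormone FGF15 restrains bile acid synthesis, while FGF1 is held near its source by heparan sulfate and binds every FGF receptor without a Klotho protein.

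The series asked how DNMT1, which copies DNA methylation onto new DNA strands, bears on metabolic dysfunction-associated steatotic liver disease (MASLD). RNA-seq was made from livers of C57BL/6 mice in 4 groups of 3 samples: standard diet, MASLD diet, and MASLD diet with Aza-TdC, a DNMT1-depleting nucleoside analogue, at a relative dose of 0.1x or at 1x. All treated mice thus had the MASLD diet, and none of these samples combined the drug with the standard diet. Age, sex, the diet's composition, its duration and the absolute dose are not given in the labels, and nothing in them states that each sample was another animal, so p-values measure only how far these samples spread, and that spread may be technical. Samples are named here by diet or dose and the number in their titles.

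Libraries held 30213048 to 41852606 counts in genes. CPM below are counts scaled to a common library size (TMM), errors of CPM are standard deviations over 3 samples, and a gene passed a comparison at a Benjamini-Hochberg adjusted p under 0.05 in edgeR's quasi-likelihood test over 13866 genes. Markers of hepatocytes were high in every library, and 9 of 10 fell with the diet, against 13.9% of all genes tested. The 10 markers summed to 164190 to 174130 CPM on the standard diet and 84718 to 105660 CPM on the MASLD diet. Some libraries carried a trend of their counts with GC content and transcript length, strongest in 0.1x sample 3 (16.6% of the variance of that library's deviations) and 1x sample 2 (15.0%). For Klb the trend was -0.09, -0.14 and -0.17 (log2) in the standard-diet samples and 0.11, 0.19 and 0.13 in the samples on the MASLD diet alone. It also separated these groups for Fgfr1, Fgfr2, Fgfr3, Fgfr4 and, narrowly, Fgf1, but not for Fgf21. A second fit took this trend out and is called the GC-adjusted fit. Where the trend separates the diets, what that fit takes out and a diet effect cannot be told apart. In bulk liver, fewer cells of a type and less RNA per cell cannot be told apart.

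Fgf21 lies on chromosome 7 at 45613886 to 45615490, minus strand (mm10, GENCODE vM21). The 250 bases before its start, at chr7:45615491-45615740, minus strand, are shown from RefSeq (GRCm38.p6) because Fgf21 was the gene of the set that changed most and because regulators of Fgf21 are described further on; capitals mark matches to 3 of 4 motifs searched on both strands.
Fgf21 promoter: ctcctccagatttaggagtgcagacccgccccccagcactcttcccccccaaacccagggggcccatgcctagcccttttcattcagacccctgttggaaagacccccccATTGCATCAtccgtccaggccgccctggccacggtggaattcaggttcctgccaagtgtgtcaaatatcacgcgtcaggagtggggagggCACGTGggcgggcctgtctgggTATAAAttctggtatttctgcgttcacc
From the start site, the first capitals (bases -140 to -132) match TGATGNAAN, the element of ATF4 and CHOP, on the opposite strand. The next (-50 to -45) are CACGTG, an E-box, and the last (-28 to -23) spell TATAAA, the box that the general transcription machinery binds. No match to AGGTCA, a motif of nuclear receptors, lay in these bases. Of 32851 mouse promoter windows of this length, 3.44% held TGATGNAAN, 6.02% the E-box, 12.4% TATAAA and 14% AGGTCA. A match describes letters and shows no binding.

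CpG sites are where DNMT1 acts. Promoter windows were matched for 5 of the 7 genes. The same windows of 250 bases held 9 CpG for Fgf21, 9 for Klb, 2 for Fgfr2, 19 and 24 for the 2 starts of Fgfr3, and 15 for Fgfr4. The median over all windows was 6 CpG.

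On a per-length scale (CPM per kb of exon), Fgfr4 and Fgf1 were the highest of the set on the standard diet, at 12.3 ± 1.32 and 11.6 ± 0.819, and did not differ beyond their spread. Klb followed at 7.55 ± 0.751, then Fgfr2 at 2.24 ± 0.526 and Fgfr3 at 2.09 ± 0.430, which did not differ beyond theirs. Fgf21 stood lower at 1.29 ± 0.607, with a standard deviation that overlapped that of Fgfr3. Fgfr1 was last at 0.331 ± 0.242. On the MASLD diet the order opened with Fgf21 at 15.5 ± 4.62, then Fgf1 at 10.7 ± 1.68, Fgfr4 at 6.29 ± 0.459 and Klb at 6.00 ± 1.06. Neither the first pair nor the second differed beyond its spread. Fgfr2 (2.37 ± 0.262), Fgfr3 (1.69 ± 0.190) and Fgfr1 (0.211 ± 0.0286) closed it. With lengths of the longest transcript instead, Fgf1 (15.9 ± 1.12) stood above Fgfr4 (13.1 ± 1.40) on the standard diet.

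Between diets, 2 of the 7 genes passed the test, Fgf21 higher and Fgfr4 lower, against 29.5% of all genes tested (15.6% higher and 13.9% lower). Between 0.1x and the MASLD diet alone 0 passed with edgeR, 0 at an unadjusted p under 0.05 and 0 with DESeq2, against 13.2% of all genes (6.08% higher and 7.09% lower). Between 1x and the MASLD diet alone Fgf1 passed, higher at 1x, against 3.11% of genes (1.49% higher and 1.62% lower). Between the doses Fgf1 and Klb passed, both higher at 1x, against 13% of genes (7.13% higher and 5.86% lower). Against the standard diet, 4 passed at 0.1x: Fgf21 higher, and Klb, Fgfr3 and Fgfr4 lower, against 20.7% of genes (9.85% higher and 10.9% lower). DESeq2 gave 5 there, with Fgfr1 as the other one. At 1x 3 passed: Fgf21 and Fgf1 higher and Fgfr4 lower, against 19.8% of genes (9.91% higher and 9.84% lower). These comparisons share libraries, so their values are set side by side and not counted as separate evidence.

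Fgf21 was at 0.682, 1.17 and 1.83 CPM in the standard-diet samples and at 10.4, 14.6 and 19.2 CPM on the MASLD diet. It was at 8.24, 15.0 and 10.9 CPM at 0.1x and at 9.50, 10.1 and 11.02 CPM at 1x. Every sample on the MASLD diet, treated or not, lay above every standard-diet sample, and the 3 groups on that diet overlapped one another. The rise with diet was 11.8-fold (log2 fold change 3.56 ± 0.31, SE; adjusted p = 2.11e-06, edgeR), and it held without any 1 library. By p it ranked 48th among the 2164 genes that rose. Against the standard diet Fgf21 rose by 3.19 ± 0.31 at 0.1x (adjusted p = 1.02e-05) and by 3.03 ± 0.31 at 1x (adjusted p = 1.83e-05). Against the MASLD diet alone the log2 difference was -0.37 (95% interval -0.93 to 0.19) at 0.1x and -0.53 (-1.08 to 0.03; adjusted p = 0.323) at 1x. Without the filter on low counts the 1x difference passed (adjusted p = 0.0431). The standard-diet values rest on 20, 37 and 63 counts.

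Pancreas acinar cells also express Fgf21, and their 10 markers summed to 0 to 8.03 CPM over the 12 libraries. These sums ran from 0.0950 to 0.512 CPM on the standard diet and from 0 to 8.03 CPM on the MASLD diet. They ran from 1.36 to 4.25 CPM at 0.1x and from 0.0841 to 0.317 CPM at 1x. MASLD sample 3, with 0 counts of all 10, held 10.4 CPM of Fgf21. MASLD sample 4, with the highest sum, held 14.6 CPM of Fgf21. MASLD sample 5, with a sum of 0.0265 CPM, held 19.2 CPM of Fgf21. The part of acinar cells in the Fgf21 level was not tested.

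**Figure D1:**
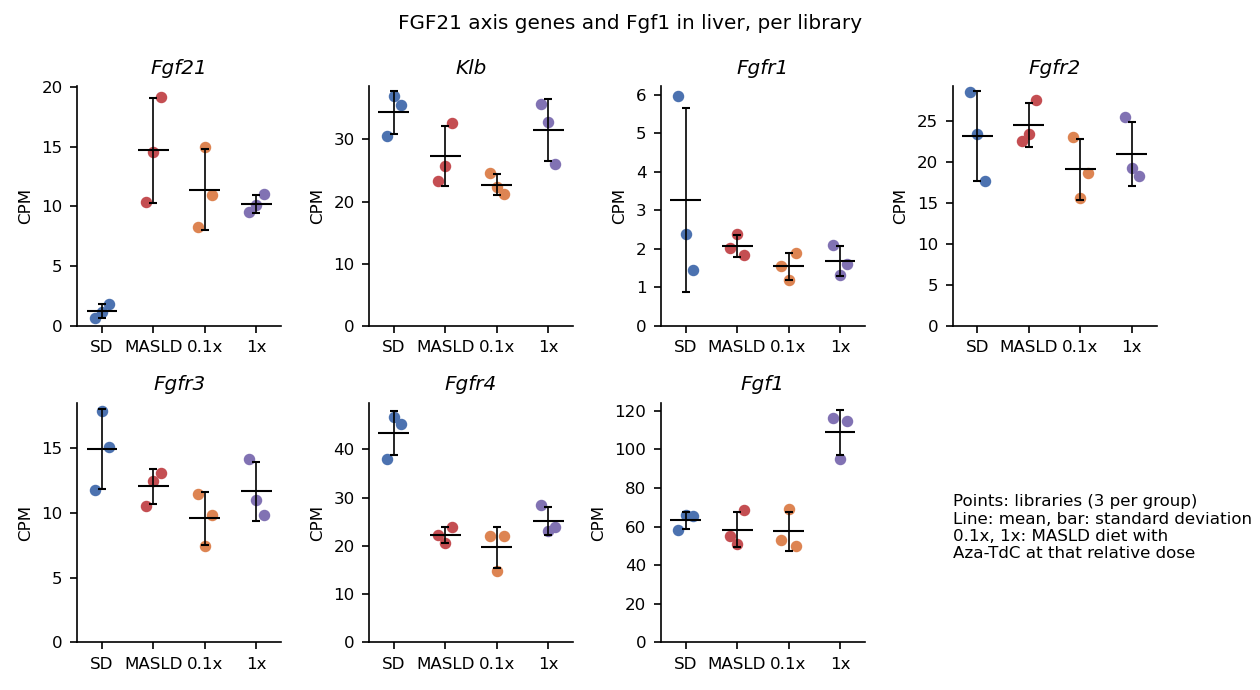
CPM of the 7 genes in each of the 12 libraries (points), with the group mean (line) and standard deviation (bar), for standard diet, MASLD diet, and MASLD diet with Aza-TdC at 0.1x or 1x. Fgf21 is at 0.682 to 1.83 CPM on the standard diet and at 8.24 CPM or more elsewhere, Fgfr4 is lower in all samples on the MASLD diet, and Fgf1 stands apart at 1x.

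Fgf1, whose protein lacks a signal peptide for secretion, lies on chromosome 18 at 38838673 to 38929472, minus strand. It was at 58.2, 66.1 and 65.7 CPM on the standard diet, at 55.2, 51.2 and 68.7 CPM on the MASLD diet and at 53.1, 69.2 and 50.2 CPM at 0.1x. At 1x it was at 116, 95.2 and 115 CPM. The 1x samples lay above all 9 others, which overlapped. The rise at 1x was 1.86-fold against the MASLD diet alone (log2 fold change 0.90 ± 0.14; adjusted p = 0.00494), 1.89-fold against 0.1x (0.92 ± 0.15; adjusted p = 0.00417) and 1.72-fold against the standard diet (0.78 ± 0.14; adjusted p = 0.00178). By p Fgf1 ranked 29th of the 207 genes that rose between 1x and the MASLD diet alone. The rise held without any 1 library (lowest log2 fold change 0.82 against the MASLD diet alone). Between the diets the log2 difference was -0.12 (95% interval -0.43 to 0.19), and between 0.1x and the MASLD diet alone -0.02 (-0.33 to 0.29). Where Fgf1 rose against the MASLD diet alone, 1.49% of all genes tested rose and 1.62% fell. Among cell markers, 2 of 10 hepatocyte markers rose, 1 of 10 macrophage markers rose and 2 fell. In the same comparison 2 of 9 cholangiocyte, 2 of 6 adipocyte and 1 of 10 stellate cell markers fell. Their part in the Fgf1 result was not tested.

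Klb encodes the co-receptor without which FGF21 and FGF15 do not signal, and lies on chromosome 5 at 65348314 to 65384007. It was at 30.5, 37.0 and 35.5 CPM on the standard diet, 23.4, 25.8 and 32.7 CPM on the MASLD diet, 24.6, 22.3 and 21.3 CPM at 0.1x, and 35.8, 32.8 and 26.0 CPM at 1x. The 0.1x samples lay below all standard-diet and all 1x samples, and the other groups overlapped. The diet difference of -0.33 (95% interval -0.64 to -0.02) did not pass (adjusted p = 0.101). It passed without MASLD sample 5 (-0.49; adjusted p = 0.0336) and in the GC-adjusted fit (-0.61; adjusted p = 0.00515). At 0.1x Klb fell by 0.59 on the log2 scale against the standard diet (adjusted p = 0.0110), a call that no single library ended. The difference between doses was 0.47 ± 0.15 (adjusted p = 0.0474). It did not pass without 0.1x sample 1 (0.53; adjusted p = 0.0642), sample 3 (0.46; 0.0898) or sample 4 (0.43; 0.113), without 1x sample 2 (0.37; 0.223) or sample 4 (0.45; 0.0960), or in the GC-adjusted fit (0.32; 0.190).

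Fgfr4 encodes the main FGF receptor of hepatocytes and lies on chromosome 13 at 55152640 to 55168759. It was at 38.1, 46.8 and 45.3 CPM on the standard diet and at 22.3, 20.7 and 23.9 CPM on the MASLD diet. It was at 22.1, 14.9 and 22.1 CPM at 0.1x and at 28.4, 23.1 and 23.9 CPM at 1x. All 9 samples on the MASLD diet lay below the 3 on the standard diet. The fall was 1.95-fold with diet (log2 fold change -0.96 ± 0.15; adjusted p = 0.000292). Against the standard diet the log2 fold change was -1.14 ± 0.15 at 0.1x (adjusted p = 0.000143) and -0.79 ± 0.15 at 1x (adjusted p = 0.00215). Each of these held without any 1 library and in the GC-adjusted fit. Of the 10 hepatocyte markers 9 fell with diet, 6 at 0.1x and 7 at 1x against the standard diet. Of all genes tested, 13.9%, 10.9% and 9.84% fell in these comparisons. The part of hepatocytes in the Fgfr4 result was not tested. Between 1x and 0.1x the Fgfr4 samples did not overlap, yet the difference of 0.35 (95% interval 0.03 to 0.67) did not pass (adjusted p = 0.131). Against the MASLD diet alone it was -0.18 (-0.50 to 0.15) at 0.1x and 0.17 (-0.15 to 0.49) at 1x.

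Fgfr3, on chromosome 5 at 33721674 to 33737068, was at 11.8, 17.9 and 15.1 CPM on the standard diet, 10.5, 12.5 and 13.1 CPM on the MASLD diet, 11.5, 7.42 and 9.86 CPM at 0.1x and 14.2, 11.01 and 9.83 CPM at 1x. The 0.1x and standard-diet samples lay close but did not overlap. Fgfr3 fell by 0.64 on the log2 scale at 0.1x against the standard diet (adjusted p = 0.0293). It did not pass without standard-diet sample 4 (-0.49; adjusted p = 0.137) or sample 5 (-0.63; 0.0643), or without 0.1x sample 3 (-0.49; 0.0948) or sample 4 (-0.66; 0.0567). The diet difference of -0.31 (95% interval -0.72 to 0.10) did not pass, but did in the GC-adjusted fit (-0.56; adjusted p = 0.0306).

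Fgfr2, on chromosome 7 at 130162451 to 133123350, was at 17.6 to 28.4 CPM on the standard diet, 22.5 to 27.5 CPM on the MASLD diet, 15.6 to 23.0 CPM at 0.1x and 18.2 to 25.4 CPM at 1x. The 4 groups overlapped. Its diet difference was 0.08 (95% interval -0.31 to 0.48), with a sign that turned without standard-diet sample 5 (-0.08), without MASLD sample 5 (-0.02) and in the GC-adjusted fit (-0.15). Fgfr2 passed in 0 of the 6 comparisons.

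Fgfr1, the receptor through which FGF21 acts on fat tissue, lies on chromosome 8 at 25513654 to 25575718. It was at 5.97, 2.37 and 1.45 CPM on the standard diet, and at 1.20 to 2.39 CPM in the other 9 libraries. The spread of the standard-diet group came from sample 3. That sample also held more than its 2 group mates of the summed markers of cholangiocytes (39.7 CPM against 27.6 and 28.4), macrophages (205 CPM against 135 and 134), sinusoidal endothelial cells (207 CPM against 153 and 173), stellate cells (247 CPM against 232 and 231) and adipocytes (45.2 CPM against 37.0 and 38.2). The sums of its acinar (0.512 CPM) and muscle markers (1.60 CPM) were also the highest of the group, and that of its hepatocyte markers the lowest (164190 CPM), and the part of these cells in its Fgfr1 level was not tested. The diet difference was -0.64 (95% interval -1.48 to 0.20), and 0.12 without that sample. Without standard-diet sample 5 instead, Fgfr1 passed against the standard diet at 0.1x (-1.43; adjusted p = 0.0145) and at 1x (-1.30; adjusted p = 0.0250), where with all libraries it did not in edgeR (adjusted p = 0.0765 and 0.108). With all libraries Fgfr1 did pass at 0.1x with DESeq2 (-1.08; adjusted p = 0.0356), at both doses without the filter on low counts (adjusted p = 0.00240 at 0.1x and 0.00936 at 1x), and at 1x in the GC-adjusted fit (-1.11; adjusted p = 0.0450).

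Exons of 3 receptor genes overlap another gene. Fgfr2 shares 314 bases with Ctbp2 on the same strand, which had 0.512 to 1.21 CPM. Fgfr3 shares 998 bases with G630022F23Rik (0 to 0.185 CPM) and Fgfr1 shares 164 with Gm16159 (0 CPM), both on the opposite strand. Reads of the stretch shared on the same strand cannot be told apart, and those of the other 2 stretches could be only by strand, for which the counting's setting is not given.

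**Figure D2:**
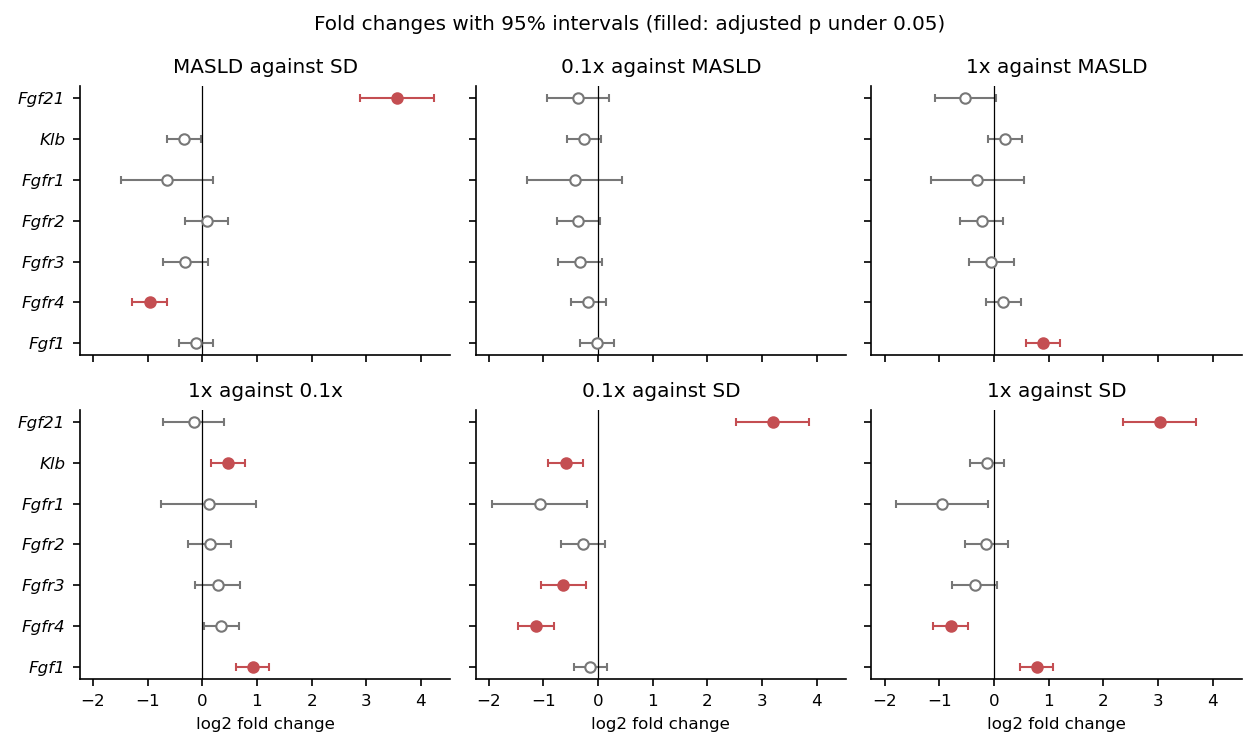
Log2 fold changes of the 7 genes in the 6 comparisons, with 95% intervals of edgeR's quasi-likelihood fit (bars); filled points have an adjusted p under 0.05. Fgf21 stands at 3.56, 3.19 and 3.03 in the 3 comparisons with the standard diet, and Fgf1 at 0.90, 0.92 and 0.78 in the 3 with 1x as first group.

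Fgfr4 made up less of the receptor transcripts on the MASLD diet. Summed over Fgfr1 to Fgfr4, the per-length level was 16.9 ± 1.24 CPM per kb on the standard diet, 10.6 ± 0.768 on the MASLD diet, 8.91 ± 1.79 at 0.1x and 10.9 ± 1.52 at 1x. Fgfr4 made up 72.4 ± 4.04% of this sum on the standard diet, with samples at 68.3, 72.5 and 76.3%. It made up 59.6 ± 2.12% on the MASLD diet (57.9 to 62.0%), 62.4 ± 2.24% at 0.1x (61.0 to 65.0%) and 65.1 ± 1.95% at 1x (63.3 to 67.1%). All standard-diet shares lay above all others, and the share depends on the lengths used: with longest transcripts it was 58.2% on the standard diet and 43.4% on the MASLD diet. These shares follow from the tests above and were not tested again.

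Klb stood at 0.616 ± 0.00674 of the Fgfr4 level per length on the standard diet, a ratio of 0.610 to 0.623 in its 3 samples. The ratio was 0.951 ± 0.124 on the MASLD diet, 0.928 ± 0.217 at 0.1x and 0.977 ± 0.130 at 1x, with every sample at 0.749 or more. Fgf21 stood at 0.168 ± 0.0716 of the Klb level on the standard diet and at 2.54 ± 0.368 on the MASLD diet. At 0.1x it stood at 2.43 ± 0.806 and at 1x at 1.59 ± 0.392 of the Klb level. These ratios too depend on the lengths used. With longest transcripts Klb was at 9.70 ± 0.966 and Fgfr4 at 13.1 ± 1.40 CPM per kb on the standard diet. On the MASLD diet they were then at 7.71 ± 1.37 and 6.70 ± 0.489 CPM per kb.

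**Figure D3:**
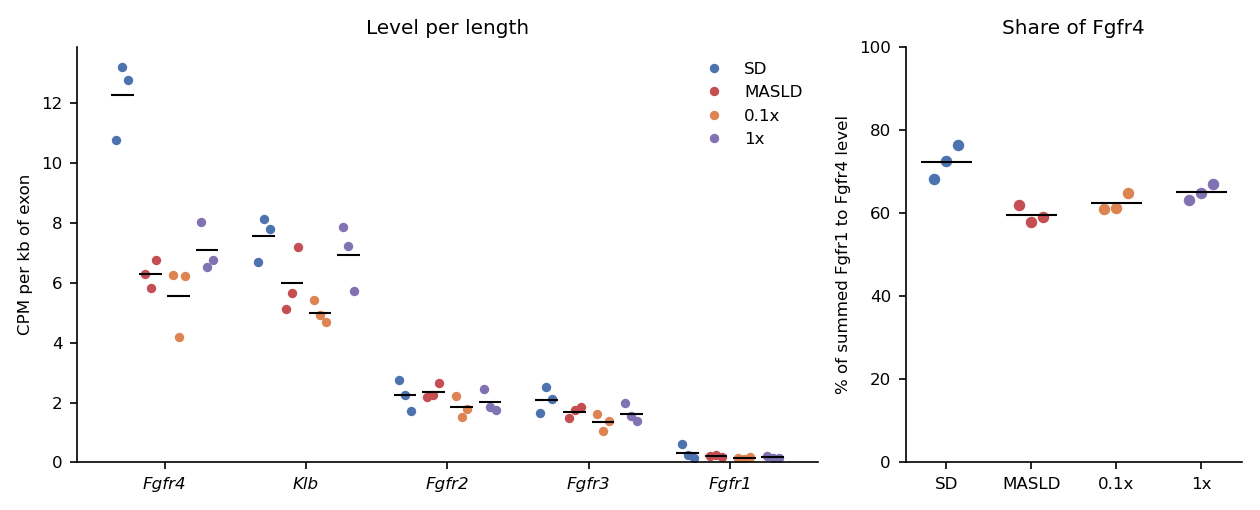
Left, CPM per kb of exon of Klb and the 4 receptor genes in each library (points) with group means (lines); right, Fgfr4 as a percentage of the summed level of the 4 receptor genes. On the standard diet Fgfr4 leads with 12.3 CPM per kb and 72.4% of the sum, and on the MASLD diet it has 59.6%.

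Other genes of the FGF pathway were read from fixed lists, and every count between diets stands against 15.6% of all genes tested that rose and 13.9% that fell. Of 20 further FGF ligand genes only Fgf11 and Fgf12 passed the filter, both at most at 0.361 CPM, and 0 passed a test in any comparison with edgeR or DESeq2 (1 was lower at an unadjusted p under 0.05 in each comparison with 1x). Fgf15, the gut ligand of FGFR4, had 0 counts in all 12 libraries. Of 10 co-receptors, decoy receptors and carriers 3 were tested and 0 passed between diets with edgeR or DESeq2, with 1 higher at an unadjusted p under 0.05. Fgfrl1, a receptor without a kinase domain, was at 41.6 ± 7.97 CPM on the standard diet and 37.7 ± 1.64 CPM on the MASLD diet (adjusted p = 0.468). Kl, which encodes alpha-Klotho, was at most at 0.154 CPM and Fgfbp1 at most at 0.0513 CPM.

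Heparan sulfate chains hold FGF1 at the cell surface. Of 19 tested genes of their core proteins and enzymes 5 rose and 5 fell with diet, with a median log2 fold change of -0.00 beside 0.03 over all genes. Gpc1, a glypican core protein, rose from 7.21 ± 1.35 to 70.5 ± 9.99 CPM (3.29 ± 0.19; adjusted p = 5.56e-08). Among the core proteins of the syndecans, Sdc2 fell by 1.10, Sdc4 by 0.96 and Sdc1 by 0.58 on the log2 scale (adjusted p = 5.56e-06, 5.78e-05 and 0.000569). Sdc3, of the same family, rose by 0.81 (adjusted p = 0.0443), and the glypican gene Gpc4 fell by 0.53 (adjusted p = 0.0102). Sulf2, which trims sulfate groups, rose by 1.14, but not without standard-diet sample 5 (0.89; adjusted p = 0.0580) or MASLD sample 5 (0.87; 0.0630). The count of rises fell to 1 without standard-diet sample 5, and was 3 against 8 falls in the GC-adjusted fit.

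Of 27 signal transducers below FGF receptors 6 rose and 3 fell with diet (median 0.02), beside 15.6% and 13.9% of all genes. Rps6ka1, a kinase driven by ERK, rose by 1.18 ± 0.15 (adjusted p = 4.73e-05) and Ptpn11, the phosphatase SHP2, by 0.55 ± 0.13 (adjusted p = 0.00644). The calls of the 3 that fell (Grb2, Frs3 and Araf) each ended without any 1 library but MASLD sample 3, standard-diet sample 3 and standard-diet sample 5, in that order of genes (highest adjusted p = 0.110, 0.130 and 0.171). Without standard-diet sample 5 the rises numbered 3, and in the GC-adjusted fit the counts were 3 higher and 9 lower. Frs2, the docking protein of FGF receptors, was at 10.8 ± 1.52 CPM on the standard diet and at 12.2 ± 0.954 CPM on the MASLD diet (adjusted p = 0.379).

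Of 19 feedback inhibitors and early targets of ERK 1 rose and 5 fell with diet (median 0.02). The early genes Ier2 and Junb fell by 1.495 and 1.72 on the log2 scale (adjusted p = 1.78e-06 and 2.44e-05), and the feedback inhibitor gene Spry4 fell by 1.31 ± 0.25 (adjusted p = 0.00141). Egr1 fell by 1.45, but not without standard-diet sample 5 (-1.16; adjusted p = 0.0653) or MASLD sample 3 (-1.21; 0.0575). Dusp6, a phosphatase that ends ERK signals, was at 24.1 ± 4.30 and 24.5 ± 1.28 CPM. Ccnd1, cyclin D1, rose by 2.48 ± 0.22 (adjusted p = 2.03e-06).

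Regulators of Fgf21 transcription numbered 27 tested genes, of which 4 rose and 6 fell with diet (median -0.13). Pparg, also one of the adipocyte markers, rose by 1.29 ± 0.16 (adjusted p = 4.97e-05). Ppara, the fasting receptor for fatty acids, rose by 0.82 ± 0.21 (adjusted p = 0.00857). Srebf1 rose by 0.71, but not without standard-diet sample 5 (0.65; adjusted p = 0.0504). Hnf4a, also one of the hepatocyte markers, fell by 0.65 ± 0.14 (adjusted p = 0.00336). Nr4a1 fell by 1.88, but not without standard-diet sample 4 (-1.28; adjusted p = 0.0812). Atf4 fell by 0.49 (adjusted p = 0.0492) and Mlxipl, which encodes ChREBP, by 0.47 (adjusted p = 0.0274), but the Atf4 call ended without any 1 library but standard-diet sample 3 (highest adjusted p = 0.183) and the Mlxipl call without standard-diet sample 3 or MASLD sample 3 or 4 (highest adjusted p = 0.113). Ddit3, which encodes CHOP, fell by 0.78, a call that ended without standard-diet sample 4 or 5 or MASLD sample 3 or 4 (highest adjusted p = 0.123). In the GC-adjusted fit 3 rose and 13 fell.

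3 lists of genes downstream of such regulators were set beside Fgf21. Of 33 tested PPARA targets 21 rose with diet (15.6% of all genes rose), with a median of 0.73; 0 fell with edgeR, 2 were lower at an unadjusted p under 0.05 and 2 fell with DESeq2. Cyp4a31, a fatty acid hydroxylase, rose from 2.24 ± 0.432 to 24.4 ± 2.18 CPM, Ehhadh, a peroxisomal oxidation enzyme, from 306 ± 18.2 to 1183 ± 9.09 CPM, and Vnn1, a pantetheinase, from 37.8 ± 6.40 to 309 ± 14.2 CPM (log2 fold changes 3.45, 1.95 and 3.03; adjusted p = 5.56e-08, 5.56e-08 and 6.36e-08). Cyp4a31 has close relatives, so reads that fit several of them make its counts uncertain.

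Of 22 integrated stress response genes 8 rose and 6 fell with diet (median 0.34). Psat1, a serine synthesis enzyme, rose from 0.706 ± 0.211 to 8.80 ± 3.33 CPM (3.64 ± 0.44; adjusted p = 3.47e-05), Vldlr, a lipoprotein receptor, by 2.19 ± 0.33 (adjusted p = 0.000199) and Gdf15, a stress hormone, by 1.70 ± 0.24 (adjusted p = 0.000115). Cth, an enzyme of cysteine synthesis, fell from 470 ± 56.9 to 98.7 ± 6.49 CPM (-2.25 ± 0.13; adjusted p = 5.56e-08), and Herpud1 and Shmt2 fell by 0.72 and 0.66 on the log2 scale. Of 18 ChREBP targets 5 rose and 4 fell (median 0.10). Scd1, a fatty acid desaturase, rose by 2.21 ± 0.20 (adjusted p = 2.27e-06) and Me1, malic enzyme, by 1.44 ± 0.16 (adjusted p = 1.39e-05). Arrdc4 and G6pc, the catalytic subunit gene of glucose-6-phosphatase, fell by 0.90 and 1.00 on the log2 scale (adjusted p = 0.000513 and 0.00325).

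Bile acid synthesis lies downstream of FGFR4 with beta-Klotho. Of 15 tested genes of bile acid synthesis, transport and their regulation 8 fell with diet (13.9% of all genes fell). None rose with edgeR, with DESeq2 or at an unadjusted p under 0.05, and the median was -0.40. Of the 10 hepatocyte markers 9 fell in this comparison, and the part of hepatocytes in the bile acid gene result was not tested. Akr1d1, a steroid reductase, fell from 160 ± 30.4 to 38.5 ± 8.36 CPM (-2.06 ± 0.23; adjusted p = 1.50e-05). Slc27a5, a bile acid ligase, fell by 0.91 and Cyp27a1, a sterol hydroxylase, by 0.69 on the log2 scale (adjusted p = 0.000426 and 0.000608). Cyp7a1, the rate-limiting enzyme that FGF15 and FGFR4 signals repress, was at 41.5 ± 16.6 CPM on the standard diet and at 39.0 ± 5.11 CPM on the MASLD diet, a log2 difference of -0.09 ± 0.33 (adjusted p = 0.867). Cyp8b1, which sets the share of cholic acid, was at 242 ± 219 and 309 ± 58.0 CPM (adjusted p = 0.601), and was higher on the MASLD diet without standard-diet sample 3 (1.41; adjusted p = 0.00493).

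Among 7 tested genes related to the clearance and secretion of FGF21, 2 rose and 1 fell with diet. Dpp8, a dipeptidyl peptidase, and Sec23a, of the vesicles that leave the endoplasmic reticulum, rose by 0.87 ± 0.13 and 0.56 ± 0.11 (adjusted p = 0.000185 and 0.00174). Dpp4, another dipeptidyl peptidase, was at 97.5 ± 5.61 CPM on the standard diet and 96.0 ± 3.43 CPM on the MASLD diet (adjusted p = 0.88). Lrp1 fell by 0.54 (adjusted p = 0.0490), a call that ended without any 1 library but standard-diet sample 5 (highest adjusted p = 0.131). Fap, a protease gene of the same list, was at most at 0.0872 CPM and had 0 counts in 10 of 12 libraries.

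**Figure D4:**
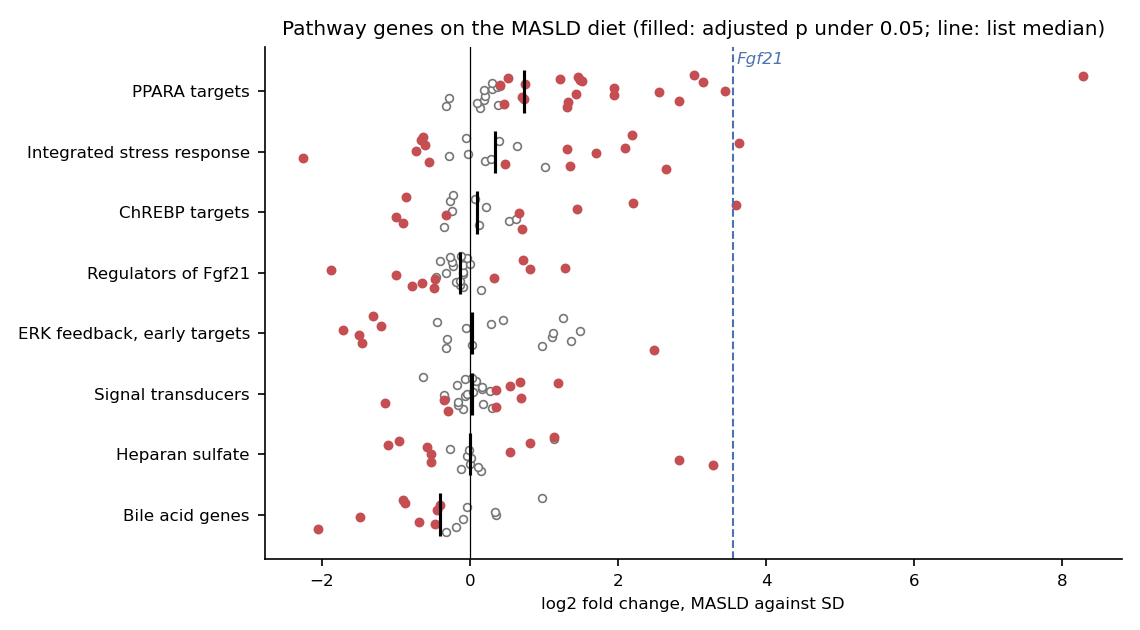
Log2 fold changes between the MASLD and the standard diet of the tested genes in 8 lists (points, filled at an adjusted p under 0.05), with each list's median (black line) and Fgf21 at 3.56 (dashed line). PPARA targets lie mostly to the right (21 of 33 rose), bile acid genes to the left (8 of 15 fell), and the others on both sides.

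The same lists were read with Aza-TdC. Of all genes 1.49% rose and 1.62% fell between 1x and the MASLD diet alone. In this comparison, where Fgf1 rose, 1 of 19 heparan sulfate genes rose: Sdc4, by 0.66 ± 0.12 (adjusted p = 0.0120), but not without MASLD sample 4 (0.61; adjusted p = 0.0931) or 1x sample 2 (0.54; 0.0538). Of the 27 transducers 0 passed with edgeR or DESeq2, and 2 were higher at an unadjusted p under 0.05; of the 19 ERK genes 0 passed with either tool, and 1 was higher and 1 lower at that p. The PPARA target Plin2, which coats lipid droplets, fell from 1147 ± 49.9 CPM on the MASLD diet to 647 ± 82.0 CPM at 1x (-0.82 ± 0.13; adjusted p = 0.00473), and held without any 1 library. Of 33 tested PPARA targets 0 rose and 1 fell with edgeR (median log2 fold change -0.01), and 1 rose and 2 fell with DESeq2. Of 15 bile acid genes 3 rose. The bile acid importer gene Slc10a1 rose by 0.69 and Akr1d1 by 0.89, and Cyp7a1 by 1.32 ± 0.34, from 39.0 to 97.0 ± 45.7 CPM (adjusted p = 0.0367, 0.0423 and 0.0476). The calls of these 3 each ended without MASLD sample 3 or 4 or 1x sample 2 or 4, that of Slc10a1 also without 1x sample 5 and that of Cyp7a1 also without MASLD sample 5 (highest adjusted p = 0.193, 0.223 and 0.206).

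Between 0.1x and the MASLD diet alone, 5 of 27 transducers and 3 of 27 regulators fell. Of all genes tested, 7.09% fell. Ptpn11 fell by 0.64 on the log2 scale (adjusted p = 0.0122), and Ppara fell from 119 ± 14.5 to 58.5 ± 19.1 CPM (-1.03 ± 0.21; adjusted p = 0.0116). These 2 calls held without any 1 library. The counts ran from 1 to 4 transducers and from 1 to 3 regulators without 1 library, lowest without MASLD sample 4 for the transducers and without MASLD sample 3 for the regulators. In the GC-adjusted fit 0 transducers and 1 regulator fell. Dpp8 fell by 0.63 (adjusted p = 0.0120), also without any 1 library. In the GC-adjusted fit 0 of the 7 clearance and secretion genes fell, so the Dpp8 call ended there. Of 33 tested PPARA targets 1 rose and 1 fell with edgeR (median log2 fold change 0.02), beside 6.08% and 7.09% of all genes.

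Between the doses, where Fgf1, Klb and 7.13% of all genes were higher at 1x, Frs2 was higher by 0.73 ± 0.14, Gab1 by 0.59 ± 0.13 and Pik3r1 by 0.66 ± 0.15 (adjusted p = 0.00937, 0.0148 and 0.0140), among 5 of 27 transducers. Ppara was higher by 1.06 ± 0.21 (adjusted p = 0.00879) and Plin2 lower by 0.60 (adjusted p = 0.0131). None of these 5 genes passed without 1x sample 2 (adjusted p = 0.0588, 0.0832, 0.0722, 0.0578 and 0.0725). Of 33 tested PPARA targets 0 were higher and 3 lower at 1x with edgeR (median log2 fold change -0.02), and 1 was higher and 3 lower with DESeq2. Of all genes 5.86% were lower. In the GC-adjusted fit 2 transducers were higher in place of 5, and 1 of 27 regulators in place of 4. There 1 PPARA target was lower in place of 3, and 842 of all genes passed in place of 1802. Ddit4, which restrains mTORC1 under stress, was at 3.09 ± 0.980 CPM at 0.1x and 10.4 ± 2.13 CPM at 1x (1.75 ± 0.22; adjusted p = 0.00160), and passed without any 1 library.

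Markers of cells other than hepatocytes moved with the diet too. Of 10 stellate cell markers 7 rose, of 10 sinusoidal endothelial markers 6, of 10 macrophage markers 8 and of 9 cholangiocyte markers 5. Of all genes tested, 15.6% rose. Summed macrophage markers ran from 134 to 205 CPM on the standard diet and from 265 to 389 CPM on the MASLD diet. Summed cholangiocyte markers ran from 27.6 to 39.7 CPM and from 55.4 to 171 CPM, with MASLD sample 4 highest. Adipocyte markers summed to 37.0 to 45.2 CPM and 284 to 319 CPM, with 3 of 6 tested markers higher. Of the 10 adipocyte markers only Lep had 0 counts in all 12 libraries, but in single libraries 1 to 4 of them had 0 counts. Muscle markers stayed at 1.69 CPM or less. The part of these cells in the values of the FGF genes was not tested.

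Genes with the most similar pattern were taken from 10714 genes by Pearson's correlation of log2 CPM over the 12 libraries, which share the 4 groups, and are given as a description. For Fgf21 they were Impa2 (0.98), the fatty acid transporter gene Cd36 (0.98), Rad51b (0.98), Cyp2a4 (0.97) and Ttc39a (0.97). Cd36 was at 39.5 ± 17.1 CPM on the standard diet, 286 ± 17.6 on the MASLD diet, 203 ± 17.4 at 0.1x and 185 ± 24.2 at 1x. Cyp2a4 shares near-identical sequence with its family. For Klb they were Ehbp1 (0.95), Uck2 (0.91), Srek1, Ikbkb and Sde2 (each 0.89). Ehbp1 was at 6.03 ± 0.554 CPM on the standard diet and 4.49 ± 0.420 at 0.1x. For Fgfr4 they were Hs6st1 (0.97), an enzyme that adds sulfate to heparan sulfate, Ell (0.97) and Uroc1 (0.96). Hs6st1 was at 185 ± 13.5, 129 ± 13.3, 113 ± 19.9 and 135 ± 11.4 CPM in the order of groups used above.

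For Fgf1 they were Ing3 (0.94), Ap5m1 (0.94) and St3gal5 (0.92), which makes the ganglioside GM3 and was at 231 ± 13.1, 238 ± 47.5, 217 ± 40.2 and 379 ± 22.7 CPM in the same order. For Fgfr3 they were Chsy3, Ubxn7 and Lrig1, for Fgfr2 Vps26b, Trim14 and Cyfip1, and for Fgfr1 Ergic1, Qsox1 and Sox9, the last of them one of the cholangiocyte markers. Sox9 was at 2.02 ± 1.35 CPM on the standard diet and at 1.38 ± 0.355, 0.888 ± 0.282 and 0.989 ± 0.312 CPM in the other groups.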

How the data were processed

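Liver RNA was sequenced in 12 libraries of mouse liver, 3 per group, from total RNA with a stranded kit for polyadenylated RNA, per the labels' protocols. Reads were aligned with STAR 2.7.3a to mm10, per the submitters' processing notes. For the counting tool, its strand setting and its annotation, the sources used here give no name. A single table of whole-number counts per gene was deposited by the authors, and each column was tied to a sample by its title, except 1 that was tied by its library name, which gave the number 8. That library is called 1x sample 5 here, the number in its title. Every column belonged to a sample.

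Symbols, positions and lengths came from GENCODE vM21, which matched 55230 of 55471 IDs (the other 241 held 0.00328% of the counts). Promoter sequences came from RefSeq (GRCm38.p6). In R 4.3.3 with edgeR 4.0.16, filterByExpr kept the genes tested (13866 of 22984 with a count), which were scaled by TMM and fitted by quasi-likelihood over all 12 libraries together, with a mean for each group. Each of 6 contrasts was tested two-sided, and p-values were adjusted over all genes tested (Benjamini-Hochberg, 0.05). SE was taken from the F statistic (log2 fold change over its square root), and intervals are 95% of the same fit. CPM per kb used the union of exons. All such values were computed from the deposited counts. No pair of replicates was as alike as repeated counting of 1 library would be.

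The 7 genes and all lists were chosen with earlier results of these data known. From each list up to 3 genes per direction with the smallest adjusted p were named, with 14 fixed genes whatever their result. Sdc3, Gpc4 and Dpp4 were added as relatives of named genes. In the comparisons with Aza-TdC only some of those taken are named, mainly genes that kept their call without any 1 library and genes related to the FGF genes that passed. Not every gene taken is reported here. Similar patterns were sought among genes with a mean of at least 1 CPM, without predicted genes and pseudogenes. The fit was tested on simulated data. Alternatives were RLE or upper-quartile factors, DESeq2 1.42.0, other filters and thresholds, fits of 2 groups, a replicate block, removal of a GC and length trend (splines with 4 degrees of freedom) and leaving out each library.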

Additional observations from a re-analysis of the deposited data

How the results depend on the processing

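Leaving out each library kept the direction and the call of Fgf21, Fgfr4 and Fgf1 in every comparison where they passed: Fgf21 stayed within 3.28 to 3.97 (MASLD against standard diet), 2.91 to 3.60 (0.1x against standard diet) and 2.76 to 3.45 (1x against standard diet) and Fgfr4 within -1.05 to -0.91, -1.23 to -0.97 and -0.89 to -0.73, while Fgf1 at 1x stayed within 0.82 to 1.04 (against MASLD), 0.83 to 1.08 (against 0.1x) and 0.72 to 0.87 (against standard diet). Klb stayed within -0.68 to -0.54 and Fgfr3 within -0.79 to -0.49 at 0.1x against standard diet, and Klb within 0.37 to 0.60 between doses, where 1 to 2 of the 7 genes passed. The number that passed ran from 2 to 3 between diets, 3 to 4 at either dose against standard diet, and stayed at 0 (0.1x) and 1 (1x) against MASLD.

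The Klb difference between doses did not pass with RLE factors (0.46), upper-quartile factors (0.42), only the 2 groups (0.47), the GC and length trend removed (0.32), or, at 0.47, an adjusted p of 0.01 or a minimum 1.5-fold change, which left 1 gene passing in each. Fgfr3 at 0.1x against standard diet did not pass with only the 2 groups (-0.63). At an adjusted p of 0.01, Klb (-0.59) and Fgfr3 (-0.64) did not pass there, which left 2 genes. With the trend removed 4 genes passed between diets, and without the filter on low counts 2 passed between 1x and MASLD. With the replicate block, Fgf1 did not pass against MASLD (0.85; adjusted p = 0.0584) or 0.1x (0.74; 0.275), nor Klb between doses (0.33) or at 0.1x against standard diet (-0.61), so that 0 genes passed between doses and between 1x and MASLD, while Fgfr3 at 1x against standard diet passed (-0.63; adjusted p = 0.0334), as it did with block and trend (-0.75; 0.0238). With the replicate block and the trend removed, 4 passed between diets, and between doses 0 (Klb 0.19, Fgf1 0.76). Same-numbered libraries did not deviate together (correlations of -0.05, -0.12 and -0.17 between the diets), so the numbers were not taken as pairs. The block gives 0.1x sample 1 and 1x sample 2 a number of their own, which drops them. Signs turned only in differences that did not pass: Fgf1 at 0.1x against MASLD (0.0112 with upper-quartile factors, 0.0078 with only the 2 groups, 0.11 with the block, 0.11 with block and trend; -0.18 to 0.11 without 1 library), Fgf21 there with the block (0.0793), Fgfr4 at 1x against MASLD with the block (-0.0121), Fgfr2 between diets (-0.15 trend, -0.14 block and trend; -0.0849 to 0.25 without 1 library) and at 1x against standard diet (-0.31 to 0.0368), Fgfr3 at 1x against MASLD (0.0334 trend; -0.21 to 0.0671) and between doses (-0.0436 block and trend), Fgfr1 between diets (-1.001 to 0.12), and, between doses, Fgf21 (0.0594 trend; -0.34 to 0.0925), Fgfr1 (-0.0636 trend; -0.0868 to 0.29) and Fgfr2 (-0.0024 trend; -0.0301 to 0.30). Between diets Frs2 turned to -0.10 (trend) and -0.0942 (block and trend), Dusp6 to -0.13 and -0.12 (-0.10 to 0.15 without 1 library), Cyp7a1 ran from -0.31 to 0.28 and Cyp8b1 from -0.0321 to 1.41. Of all genes, 4085 passed between diets, 1826 at 0.1x and 431 at 1x against MASLD, 1802 between doses, and 2872 and 2739 at 0.1x and 1x against standard diet. At an adjusted p of 0.01 these were 2254, 116, 91, 254, 1320 and 1357. Counts off by over 1.5 times, in the same order from 0.1x against MASLD on, were 33, 53, 0, 1379 and 1122 with the block and 5, 100, 0, 1707 and 1346 with block and trend. With the trend removed, 0.1x against MASLD gave 573 and the doses 842. At a minimum 1.5-fold change these gave 1016 and 1051, and 1x against standard diet 1769. With only the 2 groups, 1x against MASLD gave 1013, the doses 744 and 0.1x against standard diet 1660. Between 1x and MASLD, DESeq2 gave 825 and no filter 1131. Without 1 library the 6 counts ran from 2654 to 3850, 382 to 1599, 83 to 396, 210 to 1844, 1790 to 2619 and 1699 to 2559. The causes were not tested.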
